A study of Mus musculus with 2 samples.

Results

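The genes described here were 10 chemokines of the mouse vomeronasal organ (VNO), the pheromone-sensing organ of the nasal septum. They were picked by gene symbol out of 32285 genes in the deposited table, and all 10 were found: Ccl2, Ccl3, Ccl4, Ccl7, Ccl8, Ccl12, Cxcl2, Cxcl12, Cxcl14 and Pf4. Single cells came from whole VNOs of male C57BL/6J wild-type mice at postnatal day 60, 5 mice in total, and were captured on the 10x Genomics platform as 2 libraries of the same group. No treatment, mutant or other age was part of this series, so the comparisons below are between cell classes. The organs were dissociated with papain and collagenase, and the suspension was frozen and thawed before capture. How the mice were divided between the libraries is not given, so a difference between libraries and every p-value measures only the spread between these 2 samples, which may be technical.

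Chemokines are small secreted proteins that steer migrating cells through G protein-coupled receptors. Ccl2, Ccl7 and Ccl12 are ligands of Ccr2, the receptor that brings monocytes out of the blood, and Ccl8 belongs to the same group of neighbouring genes. Ccl3 and Ccl4 are the macrophage inflammatory proteins, and Ccl3 signals through Ccr1. Cxcl2 calls neutrophils through Cxcr2, and Cxcl12 retains leukocytes and guides vessels and progenitors through Cxcr4, with Ackr3 as its scavenger. Pf4 is platelet factor 4, known from platelets and also made by some tissue macrophages, while the receptor of Cxcl14 is not settled.

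Levels are in CPM: the unique molecular identifiers (UMIs) that a gene had in a group of cells were divided by all UMIs of the group and multiplied by 1000000. The value of library 1 comes first and that of library 2 second. After filtering, 10591 of 24084 barcodes were kept (5694 and 4897), with medians of 6668 and 6649 UMIs. The cells formed 32 clusters, drawn without any chemokine or chemokine receptor gene, of which 28 received 1 of 19 cell class names by their markers. Classes of myeloid cells were macrophage-like (1656 cells), neutrophil-like (753), dendritic-like (399) and monocyte-like (116). Depth differed widely between them, with a median of 4440.5 UMIs in macrophage-like and 1592 in neutrophil-like cells. The libraries shared 33 barcode sequences, of which 3 were among kept cells of both.

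Of the 10 genes, 6 lie on chromosome 11 (mm10, GENCODE vM21). Ccl2 (chr11:82035571-82037453), Ccl7 (chr11:82045712-82047525), Ccl12 (chr11:82101845-82103400) and Ccl8 (chr11:82115185-82116799) are forward-strand neighbours within 81.2 kilobases, and Ccl3 (chr11:83647844-83649355, reverse strand) and Ccl4 (chr11:83662584-83664683, forward strand) lie together within 16.8 kilobases. Pf4 (chr5:90772435-90773383) and Cxcl2 (chr5:90903871-90905938) are forward-strand genes on chromosome 5, Cxcl12 (chr6:117168535-117181367, forward strand) is on chromosome 6 and Cxcl14 (chr13:56288643-56296551, reverse strand) on chromosome 13. Each is protein coding, and only Ccl2 overlaps another annotated gene, Gm17268, on the opposite strand.

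The 250 bases before the RefSeq start (GRCm38.p6) were available for 7 of the 10 genes, and 4 are shown, each written 5′ to 3′ along the strand of its gene. Cxcl2 and Ccl3 were the members with their highest class level in neutrophil-like cells, and Ccl8 and Ccl12 were neighbouring genes highest in the same macrophages. Capitals mark TATAAA and a loose NF-kB motif (GGG, any 5 bases, then CC), both searched on either strand.
Cxcl2 (chr5:90903649-90903898, forward strand): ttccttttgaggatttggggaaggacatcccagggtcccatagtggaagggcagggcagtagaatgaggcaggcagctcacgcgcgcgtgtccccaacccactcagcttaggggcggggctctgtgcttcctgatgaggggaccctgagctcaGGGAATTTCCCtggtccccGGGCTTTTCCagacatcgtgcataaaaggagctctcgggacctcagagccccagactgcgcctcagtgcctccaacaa
Ccl3 (chr11:83649379-83649628, reverse strand): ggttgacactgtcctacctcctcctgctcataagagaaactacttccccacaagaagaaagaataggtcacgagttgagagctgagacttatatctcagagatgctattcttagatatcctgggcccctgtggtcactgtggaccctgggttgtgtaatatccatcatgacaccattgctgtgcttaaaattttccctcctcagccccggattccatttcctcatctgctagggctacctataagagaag
Ccl8 (chr11:82114935-82115184, forward strand): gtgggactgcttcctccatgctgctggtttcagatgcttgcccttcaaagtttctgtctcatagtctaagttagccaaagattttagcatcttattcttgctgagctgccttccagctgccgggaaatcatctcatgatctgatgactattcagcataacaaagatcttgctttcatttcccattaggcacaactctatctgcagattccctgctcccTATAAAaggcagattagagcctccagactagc
Ccl12 (chr11:82101595-82101844, forward strand): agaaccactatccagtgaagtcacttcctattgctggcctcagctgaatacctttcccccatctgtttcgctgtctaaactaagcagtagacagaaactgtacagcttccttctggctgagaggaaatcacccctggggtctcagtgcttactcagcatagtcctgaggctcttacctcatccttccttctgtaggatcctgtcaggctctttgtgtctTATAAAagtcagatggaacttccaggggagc

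Cxcl2 held 3 matches to the loose NF-kB motif, of which a forward and a reverse match overlapped in 1 run beginning 97 bases before the start. That run, GGGAATTTCCC, also fitted the stricter NF-kB consensus, which 7.25% of all 32851 promoter windows held, whereas 45.8% held the loose form. Ccl8 and Ccl12 each held TATAAA, beginning 32 and 31 bases before the start, as 12.4% of all windows did. Ccl3 held neither motif in this window. Promoters of Ccl2, Ccl4 and Ccl7 were not analysed here. Of the 7 windows, those of Cxcl12 and Cxcl14 held the most CG dinucleotides, with 14 and 16 against a median of 6 over all windows.

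Macrophage-like cells were the main source of 7 of the 10 mRNAs. They held 92.4% of all Ccl12 UMIs of the kept cells, 90.6% of Pf4, 89.7% of Ccl8, 88.5% of Ccl7, 67.4% of Ccl4, 64.9% of Ccl2 and 63.1% of Ccl3. Neutrophil-like cells held 59.6% of the Cxcl2 UMIs and 22.1% of those of Ccl3. The UMIs of the last 2 genes came mainly from other classes. Cxcl12 UMIs came from endothelial-like (26.4%), fibroblast-like (24.9%) and basal-like cells (14.4%), and Cxcl14 UMIs from basal-like (42.3%), fibroblast-like (21.3%) and neural progenitor and precursor-like cells (19.3%). These shares depend on how many cells of each class were captured and how deeply, whereas a CPM does not depend on the number of cells.

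**Figure D1:**
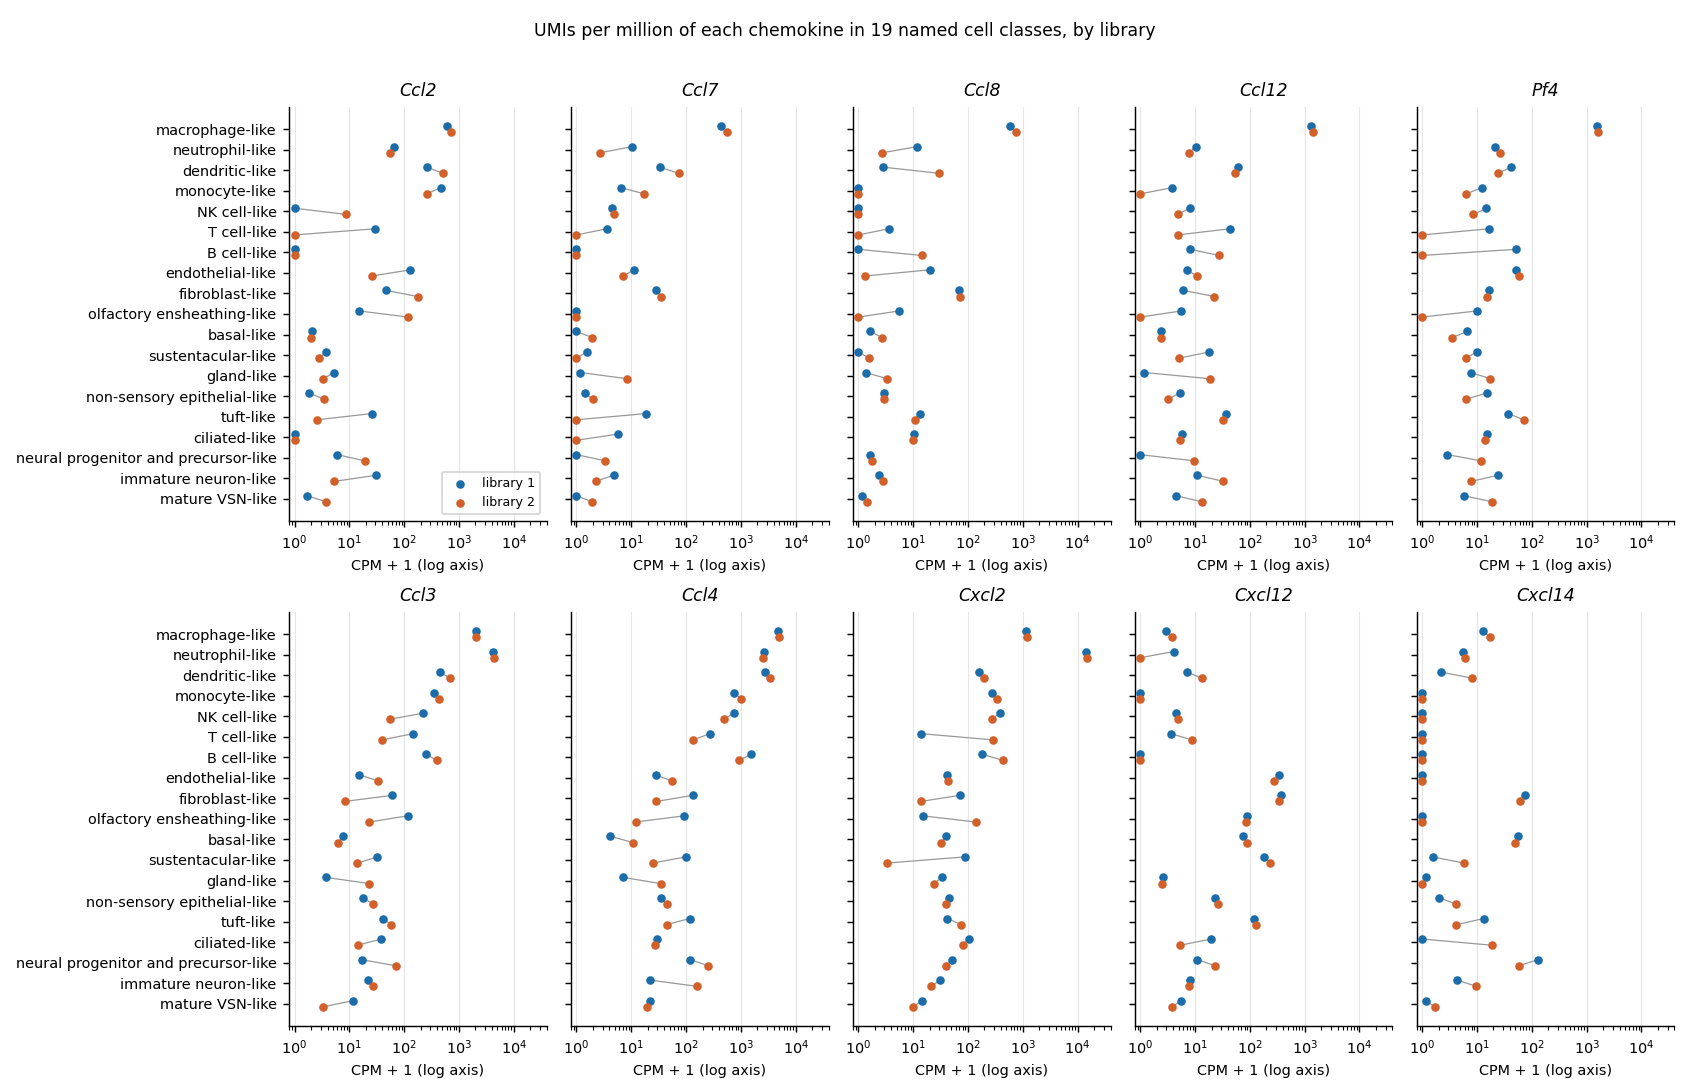
CPM + 1 on a log axis for each chemokine (panels) in the 19 named cell classes (rows), with a point for each library joined by a line. Ccl2, Ccl7, Ccl8, Ccl12 and Pf4 are highest in macrophage-like cells, Cxcl2 and Ccl3 in neutrophil-like cells, and Cxcl12 in fibroblast-like and endothelial-like cells.

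The ligands of the monocyte receptor, Ccl2, Ccl7 and Ccl12, and their neighbour Ccl8 had their highest class level in macrophage-like cells in both libraries. Ccl2 was at 609.8 and 718 CPM there, followed by dendritic-like cells at 261 and 507 CPM and monocyte-like cells at 464 and 255 CPM. The ranges of dendritic-like and monocyte-like cells overlapped, and both lay below macrophage-like cells. Ccl12 fell off more steeply, from 1313 and 1420.2 CPM in macrophage-like to 58.7 and 52.8 CPM in dendritic-like cells. Ccl7 was at 425 and 548 CPM in macrophage-like cells and at 31.8 and 73.8 CPM in dendritic-like cells, whose range overlapped that of fibroblast-like cells (27.01 and 34.4 CPM). For Ccl8 the second place went to fibroblast-like cells, at 68.1 and 71.9 CPM, below the 581 and 749.9 CPM of macrophage-like cells and above every other class.

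Macrophage-like cells were divided further. Mrc1-high macrophages (469 cells) raised Mrc1, Cd163, Lyve1, Folr2, F13a1, Cbr2 and Gas6, 7 of the 8 markers of a list known from perivascular and border-associated macrophages. Groups named by a leading gene were Plaur-led (365 cells) and Mmp12-led macrophages (328), and the latter also raised the neutrophil markers S100a8, S100a9 and G0s2. Another 494 macrophage-like cells were shallow, with a median of 844 UMIs, and carried markers of other cell types.

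Ccl2, Ccl7, Ccl8, Ccl12 and Pf4, 5 of the 10 chemokines, were higher in Mrc1-high macrophages than in the other macrophage-like cells, and Ccl3, Ccl4, Cxcl2 and Cxcl14 were lower. Of the 11383 genes tested, 6.77% were called higher and 9.01% lower. Ccl8 was at 1603 and 1896 CPM in Mrc1-high macrophages, at 18.7 and 12.1 CPM in Plaur-led macrophages and 9.94 and 6.99 CPM in Mmp12-led macrophages, and the fold over the rest of the macrophage-like cells was the steepest of the 5 (log2 fold change 4.08, SE 0.14, edgeR adjusted p = 1.12e-12). Ccl7 was at 1106 and 1424 CPM, against 44.3 and 7.79 CPM in Plaur-led and 122 and 57.1 CPM in Mmp12-led macrophages (log2 fold change 3.92, SE 0.22, edgeR adjusted p = 4.59e-10). Its log2 fold change moved with the library, from 3.33 in library 1 alone to 4.67 in library 2 alone. Ccl12 was at 2610.4 and 2876 CPM and reached 709 and 716 CPM in Mmp12-led macrophages, so the subsets differed less (log2 fold change 1.83, SE 0.12, edgeR adjusted p = 3.76e-09). Ccl2 was at 1129 and 1411 CPM in Mrc1-high, 535 and 499 CPM in Mmp12-led and 279 and 196 CPM in Plaur-led macrophages (log2 fold change 1.62, SE 0.13, edgeR adjusted p = 3.95e-08).

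Pf4 was counted in most Mrc1-high macrophages. Its level was at 3834 and 3996 CPM there, at 234 and 229.7 CPM in Mmp12-led and at 174 and 138 CPM in Plaur-led macrophages (log2 fold change 3.25, SE 0.14, edgeR adjusted p = 4.20e-11). Shallow macrophages lay between them at 1457 and 1206 CPM. With every cell thinned to 1000 UMIs, a Pf4 UMI was counted in 417 of 469 cells (88.9%, 95% interval 85.7 to 91.6%) of the Mrc1-high macrophages, whereas Ccl12 was counted in 61.6%, Ccl2 in 39.7%, Ccl7 in 36.2% and Ccl8 in 33.05%. Without thinning these shares were 97.01%, 83.2%, 61.8%, 59.9% and 48.4%. In mature vomeronasal sensory neuron (VSN)-like cells, which should lack these genes, the thinned shares were 0.7102% for Pf4, 0.568% for Ccl12 and 0.142% for Ccl2, with Ccl7 and Ccl8 in 0 of 704 cells, a count whose floor of 3 corresponds to 0.426% of cells at this thinned depth and whose exact 95% upper bound is 0.523%. Thinning left out 315 macrophage-like, 81 neutrophil-like and 0 Mrc1-high cells that were shallower than that. The median depth was 5243 UMIs in Mrc1-high macrophages and 13826 in mature VSN-like cells before thinning. Intervals and limits on shares cover counting error only.

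The macrophage inflammatory genes ran the other way among the macrophages. Ccl4 was at 2020.3 and 2398 CPM in Mrc1-high, 6547 and 6238 CPM in Plaur-led and 7399.8 and 8446 CPM in Mmp12-led macrophages, and it was lower in Mrc1-high than in the other macrophage-like cells (log2 fold change -1.80, SE 0.11, edgeR adjusted p = 1.12e-09). Ccl3 was at 1590.3 and 1485 CPM, 2549 and 2629 CPM and 2770.4 and 2655 CPM in the same order of subsets (log2 fold change -0.91, SE 0.11, edgeR adjusted p = 7.87e-06). Cxcl2 was at 1064 and 1174 CPM in Mrc1-high and 389 and 366 CPM in Plaur-led macrophages but at 2623 and 2700.1 CPM in Mmp12-led macrophages. The fitted difference of Cxcl2 was small (log2 fold change -0.40, SE 0.11, edgeR adjusted p = 0.0169), and its ratio of summed CPM was 0.934. Cxcl14 was low throughout, at 3.33 and 6.96 CPM in Mrc1-high macrophages and 16.5 and 21.3 CPM in the others (log2 fold change -2.13, SE 0.38, edgeR adjusted p = 0.000522). Cxcl12, with 5 UMIs in Mrc1-high macrophages, did not pass the test (adjusted p = 0.673).

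The median log2 fold change was 0.61 over the 10 and -0.01 over all genes tested. Neutrophil markers summed to 30.01 and 36.4 CPM in Mrc1-high macrophages, with 6 of 8 in both libraries and Retnlg and Ly6g at 0, and to 60.9 and 202 CPM in the others, with Ly6g at 0. Without the shallow macrophages, each of the 10 kept its direction and its side of the threshold, but the log2 fold change of Ccl8 was 6.81 and that of Pf4 4.06.

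**Figure D2:**
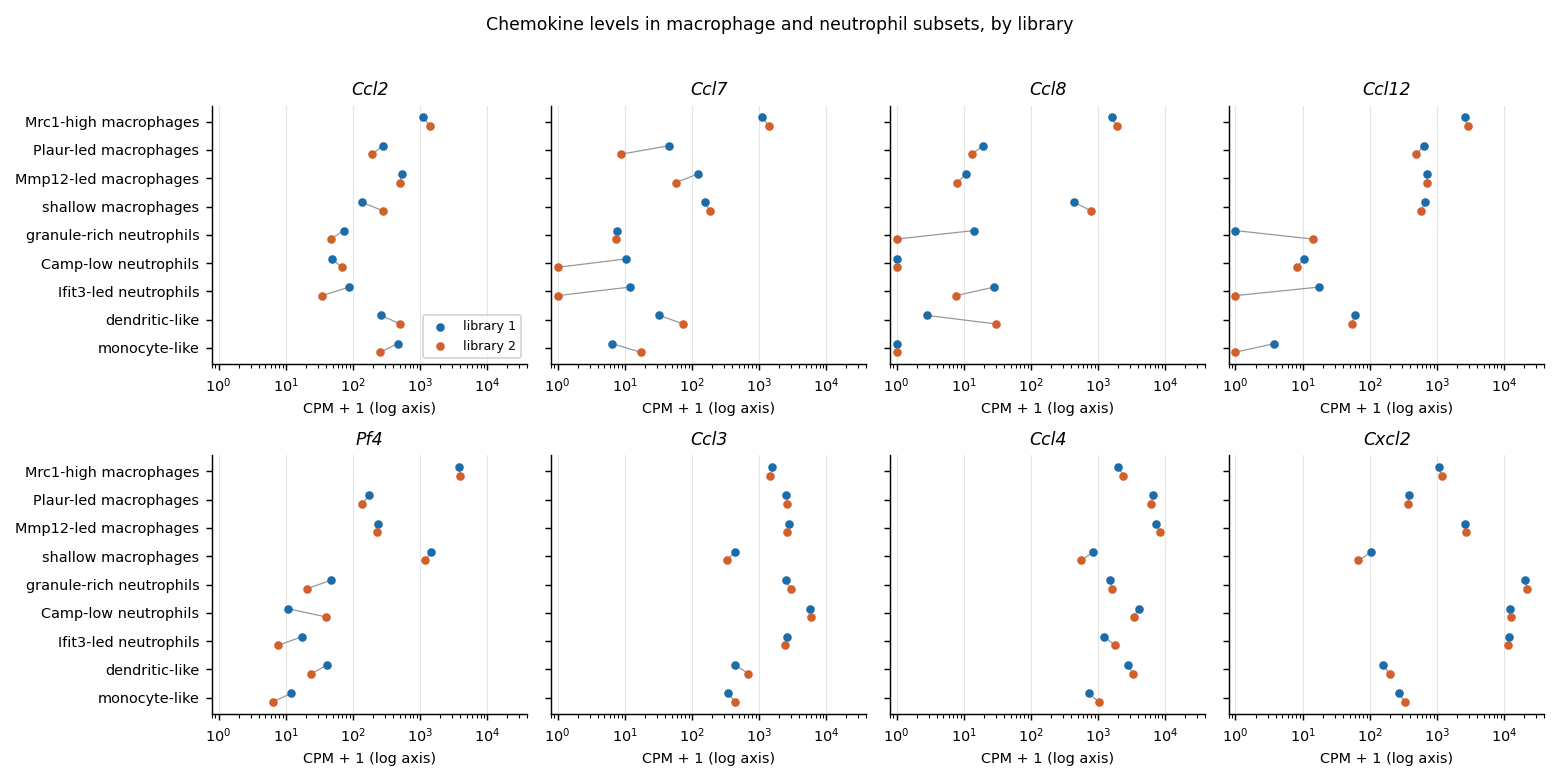
CPM + 1 on a log axis for 8 chemokines (panels) in macrophage and neutrophil subsets and in dendritic-like and monocyte-like cells (rows), with a point for each library. Ccl7, Ccl8 and Pf4 peak in Mrc1-high macrophages, Ccl4 in Mmp12-led and Plaur-led macrophages, and Cxcl2 in granule-rich neutrophils.

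Neutrophil-like cells had the highest levels of Cxcl2 and Ccl3 of all classes. Cxcl2, the neutrophil attractant, was at 14105 and 14848 CPM in neutrophil-like and 1142 and 1205 CPM in macrophage-like cells. The libraries of each class were close together and the classes did not overlap, and the difference passed the test (log2 fold change -3.52, SE 0.10, edgeR adjusted p = 1.18e-30). NK cell-like cells came next at 376 and 271 CPM, a range that overlapped B cell-like cells. Only 6 and 7 NK cell-like cells held a Cxcl2 UMI, and the highest held 67.6% and 53.5% of the UMIs of its library. A Cxcl2 UMI was counted in 569 of 672 cells (84.7%, 95% interval 81.7 to 87.3%) of neutrophil-like cells thinned to 1000 UMIs, in 25.4% of macrophage-like cells and in 0.568% of mature VSN-like cells. Without thinning the shares were 85.8%, 29.7% and 2.27%.

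Within the neutrophils, Cxcl2 and Ccl3 had different orders. Granule-rich neutrophils (191 cells), which raised the granule genes Camp, Ngp, Lcn2, Cd177 and Mmp8, had 20732 and 21984 CPM of Cxcl2. Camp-low neutrophils (351 cells) had 12233 and 12656 CPM and Ifit3-led neutrophils (211 cells), led by interferon-induced genes, had 11825 and 11639 CPM. Ccl3 was instead highest in Camp-low neutrophils, at 5865 and 6073 CPM, against 2543 and 2964 CPM in granule-rich and 2609.7 and 2456 CPM in Ifit3-led neutrophils. Ccl4 followed Ccl3, at 4037 and 3432 CPM, 1530.1 and 1613 CPM and 1250.5 and 1786 CPM in the same order, with overlapping ranges of the last 2 subsets. These values within neutrophils are levels and were not tested.

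Against neutrophil-like cells, macrophage-like cells were higher in 7 of the 10 chemokines and lower in 2, where 24.2% of the 11993 genes tested were called higher and 19.8% lower. Ccl12 was at 1313 and 1420.2 CPM in macrophage-like and 9.29 and 6.89 CPM in neutrophil-like cells (log2 fold change 7.48, SE 0.22, edgeR adjusted p = 3.07e-30). The log2 fold changes of the other 4 genes of the Mrc1-high pattern were 6.76 (SE 0.28, adjusted p = 6.00e-25) for Ccl8, 6.50 (SE 0.29, adjusted p = 1.71e-23) for Ccl7, 6.21 (SE 0.19, adjusted p = 5.16e-30) for Pf4 and 3.58 (SE 0.18, adjusted p = 6.65e-22) for Ccl2. The first 2 of these rested on 8 and 7 UMIs in neutrophil-like cells, and their values without library 2 were 5.81 and 5.57, without library 1 8.47 and 8.02. Ccl4 was higher in macrophage-like cells (4712 and 4989 CPM) than in neutrophil-like cells (2657 and 2535 CPM), while Ccl3 was lower (2083 and 2063 CPM against 4161 and 4335 CPM). The fits were 1.00 (SE 0.10, adjusted p = 2.59e-11) for Ccl4 and -0.93 (SE 0.11, adjusted p = 3.64e-10) for Ccl3. Cxcl14 passed at 1.61 (SE 0.53, adjusted p = 0.0123) with 6 UMIs in neutrophil-like cells, but not with DESeq2 (adjusted p = 0.122), and Cxcl12 did not pass (adjusted p = 0.684).

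The markers of either cell type were low in the other. Macrophage markers summed to 418 and 381 CPM in neutrophil-like cells, with 7 of 7 in both libraries, against 26067 and 24909 CPM in macrophage-like cells. Neutrophil markers summed to 50.7 and 142 CPM in macrophage-like cells, with 6 of 8 in both libraries and Ly6g at 0, against 46311 and 53616 CPM in neutrophil-like cells. The median log2 fold change was 2.60 over the 10 chemokines and 0.21 over all genes tested.

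Immediate early and heat shock genes, which are known to rise during tissue dissociation, were abundant in these cells. The summed level of 12 of them (Fos, Fosb, Jun, Junb, Egr1, Ier2, Atf3, Dusp1, Nfkbia, Zfp36, Hspa1a and Hspa1b) was 18256 and 19533 CPM in macrophage-like and 19464 and 20850.2 CPM in neutrophil-like cells. It was 18462 and 19642 CPM in Mrc1-high, 17709 and 18420.3 CPM in Plaur-led and 23493 and 24807 CPM in Mmp12-led macrophages. Among the neutrophils it was 23594 and 23695 CPM in granule-rich, 21764 and 23636 CPM in Ifit3-led and 16096 and 17833 CPM in Camp-low cells. Of the 3 named macrophage subsets, Mmp12-led macrophages had the highest level of the 12 genes and the highest Ccl3, Ccl4 and Cxcl2. Ccl2, Ccl7, Ccl8, Ccl12 and Pf4 were highest in Mrc1-high macrophages. Among the neutrophils, granule-rich cells had the highest Cxcl2 and, in each library, the highest level of the 12 genes. Camp-low cells had the highest Ccl3 and Ccl4 and the lowest level of the 12 genes. Ifit3-led cells had the lowest Cxcl2, with a level of the 12 genes between those of the other subsets in each library. Basal-like cells had 39118 and 39523 CPM of the 12 genes with Ccl4 at 3.16 and 9.801 CPM, and mature VSN-like cells had 1638 and 1851 CPM. The part of dissociation in the chemokine levels was not tested.

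Dendritic-like cells came second for Ccl4, at 2799 and 3338 CPM, between macrophage-like and neutrophil-like cells and apart from both. Their Ccl3 level was 445 and 698 CPM, apart from the 345 and 439 CPM of monocyte-like cells. B cell-like cells showed Ccl4 at 1560.2 and 925 CPM, but from 52 cells, of which the highest held 48.4% and 94.3% of the UMIs of its library. NK cell-like cells had 735 and 496 CPM of Ccl4, and T cell-like cells 271 and 135 CPM.

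Ccl3 and Ccl4 were often counted in the same cells. In thinned neutrophil-like cells a Ccl4 UMI was counted in 50.5% and 48.4% of the cells with a Ccl3 UMI, against 12.9% and 14.3% of those without. Mrc1-high macrophages showed Ccl4 in 63.2% and 70.5% of the cells with a Ccl3 UMI, against 28.8% and 31.2% of those without. The same direction held in Plaur-led and Mmp12-led macrophages and in dendritic-like cells in each library. Cxcl2 did not go with Ccl3 in neutrophil-like cells, since it was counted in 83.6% and 84.8% of the cells with a Ccl3 UMI, against 84.7% and 86.7% of those without. Of the Ccr2 ligands, Ccl2 and Ccl7 also shared cells of the Mrc1-high macrophages, with Ccl7 counted in 44.8% and 53.5% of the cells with a Ccl2 UMI, against 25.5% and 29.7% of those without. Ccl12 differed less, at 60.9% and 72.7% of the cells with a Ccl2 UMI, against 51.03% and 65.2% of those without. With Ccl7 it was counted in 65.8% and 80.9%, against 49.4% and 60.1% of the cells without a Ccl7 UMI. Cells of a library share its depth and free RNA, so these shares are descriptions without a test.

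Cxcl12, the ligand of Cxcr4, was highest outside the myeloid cells. Fibroblast-like cells had 369 and 338 CPM and endothelial-like cells 333 and 276 CPM, a difference that did not pass the test (log2 fold change 0.22, SE 0.16, edgeR adjusted p = 0.302), with a higher level in fibroblast-like cells in each library. At a mitochondrial limit of 10% in place of 5% it turned to endothelial-like cells (-0.38, adjusted p = 0.0320). Next came sustentacular-like cells at 179 and 234 CPM and tuft-like cells at 120.2 and 129 CPM, each apart from its neighbours in the order. Olfactory ensheathing-like (87.7 and 84.8 CPM) and basal-like cells (74.9 and 86.7 CPM) overlapped. Mature VSN-like cells had 4.62 and 2.79 CPM.

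Among the endothelial-like cells, Cxcl12 was concentrated in Sema3g-led cells (147 cells), Sema3g being a gene known from arteries. They had 1486 and 1683 CPM, whereas Prnd-led cells (174) had 167 and 100.1 CPM and Selp-high cells (293) had 25.1 and 25.7 CPM. Selp-high cells raised Sele, Selp, Vcam1 and Nr2f2, known from veins, and also the fibroblast markers Dcn, Col1a1, Col1a2, Col3a1 and Lum. A Cxcl12 UMI was counted in 92 of 147 cells (62.6%, 95% interval 54.2 to 70.4%) of thinned Sema3g-led cells and in 2.39% of Selp-high cells, and without thinning in 85.03% and 14.3%. Of 704 mature VSN-like cells, 0 held a Cxcl12 UMI after thinning, whereas without thinning 12 cells of library 1 and 10 of library 2 did. Stromal cells were more even, with 659.8 and 614 CPM in Pi16-raised fibroblasts (188 cells), 285 and 231 CPM in Npr3-led stromal cells (118) and 227 and 260.1 CPM in Cytl1-led stromal cells (93), which were led by cartilage genes.

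Cxcl14 had narrow sources. Npr3-led stromal cells had 254 and 204 CPM, whereas Pi16-raised fibroblasts had 0 and 4.75 CPM and Cytl1-led stromal cells 20.8 and 12.8 CPM. In endothelial-like cells no Cxcl14 UMI was counted in either library, against 189 and 119 UMIs in fibroblast-like cells (73.99 and 61.1 CPM), so that the level was at least 127-fold higher in fibroblast-like cells when 3 counts over both libraries are taken as the floor, or at least 65.2-fold and 60.004-fold in library 1 and library 2 with 3 counts per library (edgeR adjusted p = 3.82e-10). Neural progenitor and precursor-like cells had 129 and 57.9 CPM, a range that overlapped fibroblast-like cells, and basal-like cells had 56.1 and 49.4 CPM. Of the basal-like clusters, the cells led by Dlk2 (1054 cells) had 74.7 and 64.6 CPM and those led by Krt13 (249) had 4.19 and 1.596 CPM. After thinning, a Cxcl14 UMI was counted in 21 of 116 cells (18.1%, 95% interval 11.6 to 26.3%) of Npr3-led stromal cells, 6.29% of neural progenitor and precursor-like cells, 4.61% of basal-like cells and in 0 of 704 mature VSN-like cells. The shares without thinning were 61.02%, 43.8%, 16.2% and 0.568%.

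**Figure D3:**
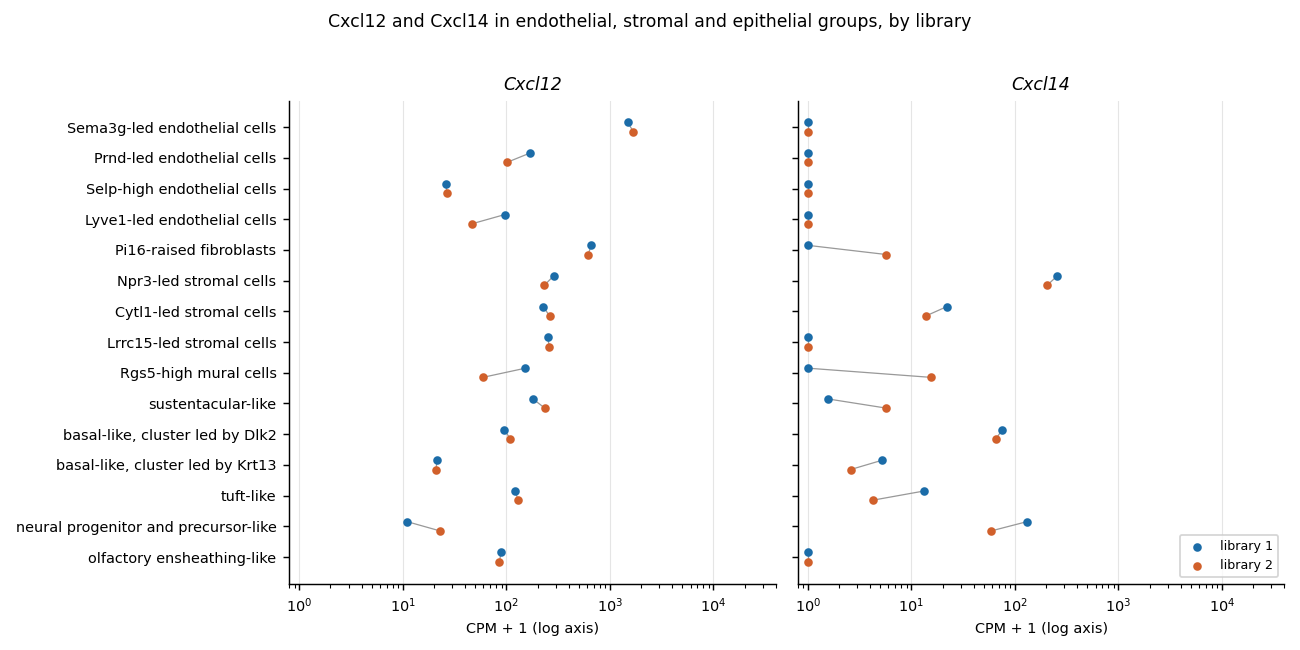
CPM + 1 on a log axis for Cxcl12 (left) and Cxcl14 (right) in endothelial, stromal and epithelial groups (rows), with a point for each library. Cxcl12 is highest in Sema3g-led endothelial cells and Cxcl14 in Npr3-led stromal cells, and Cxcl14 sits at 0 in the 4 endothelial groups shown.

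Fibroblast-like cells were higher than endothelial-like cells in 3 of the 10 chemokines and lower in 1, where 22.4% of the 13641 genes tested were called higher and 19.1% lower. Besides Cxcl14, Ccl7 was at 27.01 and 34.4 CPM in fibroblast-like and 10.2 and 6.11 CPM in endothelial-like cells (log2 fold change 1.91, SE 0.29, edgeR adjusted p = 3.90e-05). The fibroblast-like class includes 58 Rgs5-high mural cells, which also raised macrophage and neutrophil markers, and 106 of its 136 Ccl7 UMIs were in them (260.4 and 281 CPM, from 2 and 4 cells). Pi16-raised fibroblasts had 26.2 and 14.2 CPM, and no Ccl7 UMI was counted in Npr3-led or Cytl1-led stromal cells. Ccl8 was at 68.1 and 71.9 CPM and 18.9 and 0.339 CPM (log2 fold change 2.91, SE 0.52, edgeR adjusted p = 0.000226). Its log2 fold change was 1.82 without library 2 and 6.61 without library 1. It did not pass with DESeq2 (adjusted p = 0.337). Pf4 was lower in fibroblast-like cells (15.7 and 14.4 CPM) than in endothelial-like cells (49.9 and 56.3 CPM, log2 fold change -1.80, SE 0.21, edgeR adjusted p = 1.90e-06), in which Selp-high cells had 87.1 and 85.2 CPM.

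Single cells held much of these mRNAs in the stroma. The highest cell held 49.3% and 74.6% of the Ccl7 UMIs of fibroblast-like cells in its library and 22.4% and 18.6% of those of Ccl8. In endothelial-like cells 1 cell held 94% of the 50 Ccl8 UMIs of library 1, and library 2 had 1 UMI. Ccl2, at 45.8 and 176 CPM in fibroblast-like and 128 and 24.8 CPM in endothelial-like cells, was higher in a different class in each library, and 1 cell held 64.1% of the endothelial UMIs of library 1. Rgs5-high mural cells held 222 of the 459 Ccl2 UMIs of fibroblast-like cells. They also held 350 of the 393 UMIs of Ccl4, 153 of the 168 of Ccl3 and 198 of the 206 of Cxcl2 in that class. Macrophage markers summed to 379 and 293 CPM in fibroblast-like and 673 and 799 CPM in endothelial-like cells, with 7 of 7 in both libraries in each class. Without the subclusters set aside as mixed, Ccl7 no longer passed (log2 fold change 0.78, adjusted p = 0.192), whereas Ccl8 (7.14), Cxcl14 and Pf4 (-3.23) did. There Cxcl2 turned to fibroblast-like cells being lower (log2 fold change -3.85, adjusted p = 7.24e-08) and Cxcl12 passed in favour of fibroblast-like cells (0.39, adjusted p = 0.0400). Selp-high cells, which also raised fibroblast markers, were not set aside. They held 224 of the 298 Pf4 UMIs and 162 of the 230 Cxcl2 UMIs of endothelial-like cells. The part of macrophage RNA in these values was not tested.

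Between the supporting epithelia, basal-like cells were higher than sustentacular-like cells in 1 of the 9 chemokines tested and lower in 4, where 20.5% and 19.5% of 13792 genes were called higher and lower. Cxcl14 was at 56.1 and 49.4 CPM in basal-like and 0.554 and 4.7001 CPM in sustentacular-like cells (log2 fold change 4.68, SE 0.41, edgeR adjusted p = 2.64e-05), which the libraries alone put at 6.36 and 3.65. Cxcl12 ran the other way, at 74.9 and 86.7 CPM and 179 and 234 CPM (log2 fold change -1.02, SE 0.14, edgeR adjusted p = 0.000454). The log2 fold changes of the remaining 3 were -2.98 (SE 0.65, adjusted p = 0.00608) for Ccl4, -2.60 (SE 0.65, adjusted p = 0.0116) for Ccl12 and -1.58 (SE 0.40, adjusted p = 0.0134) for Ccl3. Ccl12 did not pass at a mitochondrial limit of 10% (-0.38, adjusted p = 0.309). In sustentacular-like cells Ccl4 was at 99.1 and 23.5 CPM, Ccl12 at 17.2 and 4.11 CPM and Ccl3 at 31.6 and 12.9 CPM, and macrophage markers there summed to 615 and 206 CPM with 7 of 7 in both libraries, against 110.0 and 108 CPM in basal-like cells, also 7 of 7. In sustentacular-like cells library 1 was the higher for all of these. Few of the 283 sustentacular-like cells held a UMI of these chemokines, with 10 and 3 for Ccl4, 3 and 5 for Ccl12 and 8 and 3 for Ccl3. The highest cell held 37.4% and 95% of the Ccl4 UMIs of its library. For Ccl12 it held 51.6% and 28.6%, and for Ccl3 26.3% and 72.7%. Without library 1 the log2 fold changes were -0.90 for Ccl4, -1.13 for Ccl12 and -0.94 for Ccl3, and without library 2 they were -4.54, -3.06 and -1.88. The part of macrophage RNA was not tested. Ccl7, with 6 UMIs in both classes together, was too low to test.

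**Figure D4:**
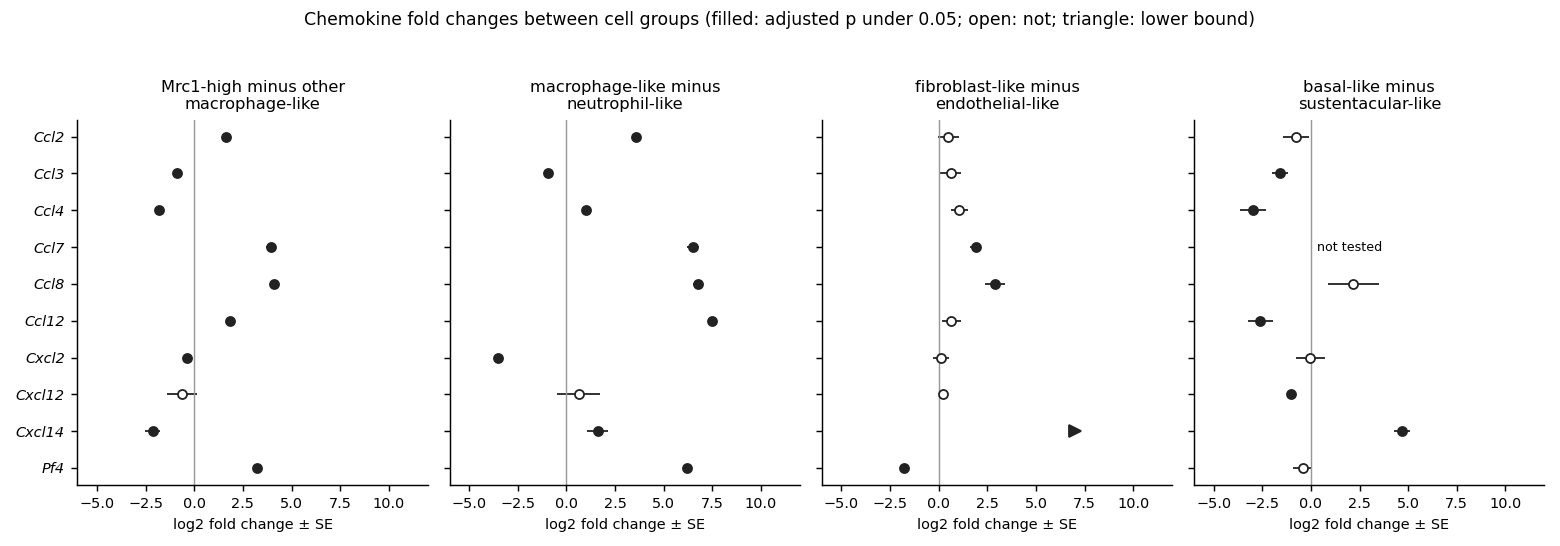
Log2 fold change ± SE of each chemokine (rows) in the 4 comparisons (panels), with filled points for an adjusted p under 0.05, open points for the rest and a triangle for the lower bound of Cxcl14. Ccl2, Ccl7, Ccl8, Ccl12 and Pf4 lie right of 0 in the first 2 panels and Ccl3 and Cxcl2 left of it.

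The receptors differed in their cells. Cxcr2, which binds Cxcl2, was itself highest in neutrophil-like cells, at 547 and 537 CPM, and stood at 299 and 360.4 CPM in Camp-low, 742 and 662 CPM in granule-rich and 805 and 744 CPM in Ifit3-led neutrophils. Ccr1, a receptor of Ccl3, was at 727 and 863 CPM in neutrophil-like cells and at 183 and 166 CPM in Mrc1-high macrophages, which exceeded the other macrophage-like cells (log2 fold change 2.47, SE 0.17, edgeR adjusted p = 9.08e-09). Ccr2 was highest in T cell-like (326 and 369 CPM) and monocyte-like cells (281 and 396 CPM), whose ranges overlapped, and stood at 196 and 209 CPM in dendritic-like cells. Within macrophages Ccr2 was lower in Mrc1-high cells (log2 fold change -2.92, SE 0.22, edgeR adjusted p = 1.83e-08), with 176 and 201 CPM in Mmp12-led macrophages. Cxcr3 was low, at 73.1 and 80.1 CPM in NK cell-like and 86.7 and 65.4 CPM in T cell-like cells.

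Cxcr4 and Ackr3, the receptors of Cxcl12, were highest in different classes. Cxcr4 was at 1021 and 1159 CPM in neutrophil-like, 267 and 363 CPM in monocyte-like and 114 and 145 CPM in macrophage-like cells. Ackr3 was at 110.2 and 125 CPM in sustentacular-like and 80.1 and 91.5 CPM in basal-like cells, and at 131 and 90.7 CPM in Lyve1-led endothelial cells (35 cells), where 1 cell held 90.9% of the UMIs of library 1. Ackr1, the chemokine sink of venules, had its highest level in endothelial-like cells, at 27.2 and 19.003 CPM from 128 UMIs, with 69.6 and 27.6 CPM in Prnd-led and 25.1 and 24.9 CPM in Selp-high cells. Mature VSN-like cells held 57 UMIs, at 5.16 and 6.52 CPM. An Ackr1 UMI was counted in 8.44% of endothelial-like and 7.24% of mature VSN-like cells, and after thinning in 1.77% and 0.7102%, with overlapping intervals.

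**Figure D5:**
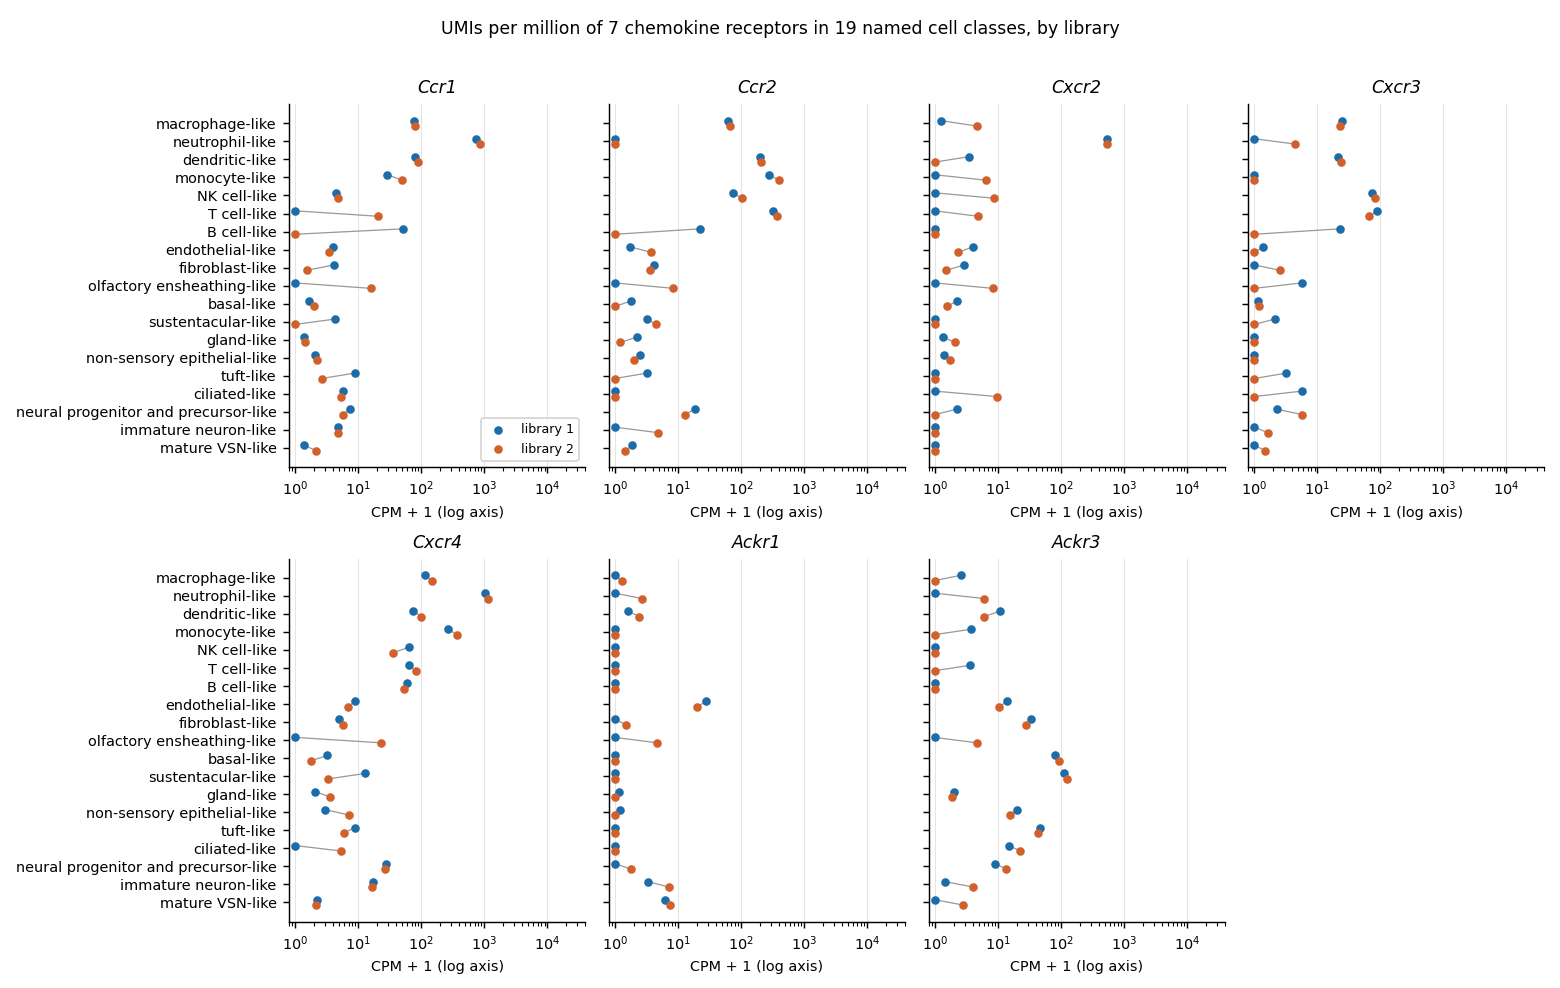
CPM + 1 on a log axis for 7 chemokine receptors (panels) in the 19 named cell classes (rows), with a point for each library. Cxcr2, Ccr1 and Cxcr4 are highest in neutrophil-like cells and Ackr3 in sustentacular-like cells.

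Beyond the 10 genes, 27 other chemokine ligands and 22 receptors of the table were examined. In Mrc1-high against other macrophage-like cells, 16 of the ligands were tested, of which Ccl24, an eosinophil attractant, was higher (log2 fold change 3.19, SE 0.27, edgeR adjusted p = 9.30e-08) and Cxcl16, Ccl5 and Ccl9 were lower, with Ccl5 at -3.76 (SE 0.32, adjusted p = 1.04e-07). The median log2 fold change was -0.52 over these ligands. Of 8 receptors tested, Ccr1 was higher and Ccr2, Cxcr4 and Ccrl2 were lower, with a median of -0.79. Calls were 6.25% higher and 18.75% lower for these ligands and 12.5% and 37.5% for these receptors. Over all 11383 genes tested they were 6.77% and 9.01%.

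In macrophage-like against neutrophil-like cells, 5 of 17 other ligands were higher (Cxcl9, Ccl24, Cxcl16, Ccl5 and Ccl9) and 3 lower (Cxcl3, Cxcl1 and Cxcl10). Cxcl1, like Cxcl2 a ligand of Cxcr2, was at -2.18 (SE 0.18, adjusted p = 4.62e-14) on the log2 scale. Of 10 receptors, 3 were higher (Cx3cr1, Ccr2 and Cxcr3) and 6 lower (Cxcr2, Cxcr1, Cxcr4, Ccrl2, Ccr1 and Ccr3). Over all 11993 genes tested, 24.2% were called higher and 19.8% lower. The shares were near this for these ligands (29.4% and 17.6%) and were 30% and 60% for these receptors. The median log2 fold change was 0.07 over the ligands, or -0.38 with genes at 0 in 1 class set to their bound, and -2.87 over the receptors.

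In fibroblast-like against endothelial-like cells, 8 of 17 other ligands were higher and 1 lower, with a median log2 fold change of 0.87. Ccl19, which guides lymphocytes and dendritic cells through Ccr7, was higher (log2 fold change 8.76, SE 0.28, edgeR adjusted p = 1.03e-12), and Ccl21a, another ligand of Ccr7, was lower (log2 fold change -10.83, SE 0.32, edgeR adjusted p = 8.20e-13). Most Ccl21a UMIs of endothelial-like cells were in the 35 Lyve1-led cells. Of 12 receptors, Ackr3 and Ackr4 were higher and Ackr1 and Ackr2 lower, with a median of -0.37. Calls were 47.1% higher and 5.88% lower for these ligands and 16.7% in either direction for these receptors. Over all 13641 genes tested they were 22.4% and 19.1%. In basal-like against sustentacular-like cells, 7 of 17 other ligands were higher and 2 lower. Ccl20, known for drawing Ccr6+ cells to epithelia, was higher (log2 fold change 6.36, SE 0.62, edgeR adjusted p = 5.32e-05) as was Cxcl1 (log2 fold change 3.95, SE 0.20, edgeR adjusted p = 9.41e-07), and Ccl25 was lower (log2 fold change -5.38, SE 0.23, edgeR adjusted p = 4.30e-07). The median was 3.30 over these ligands, or 0.79 with genes at 0 in 1 class set to their bound. Of 9 receptors, Ackr4 was higher and Cx3cr1 lower, with a median of -0.12. Cx3cr1 rested on 29 and 6 UMIs in sustentacular-like and 2 and 5 UMIs in basal-like cells, and the part of macrophage RNA in it was not tested. Here calls were 41.2% higher and 11.8% lower for the ligands and 11.1% in either direction for the receptors. Over all 13792 genes tested they were 20.5% and 19.5%.

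The genes most like each chemokine across the 19 named classes were found from the correlation of log2(CPM + 10) among 14293 genes with at least 100 UMIs. Pf4 was most like Mrc1 (r = 0.963), Fcrls (r = 0.961), Ms4a14 (r = 0.932), and Ccl12 most like C3ar1 (r = 0.953), Mrc1 (r = 0.9501), Fcrls (r = 0.945), so that both shared Mrc1, the mannose receptor of macrophages, and Fcrls. Ccl7 came with Adap2 (r = 0.934), Kcng2 (r = 0.916), Cd163 (r = 0.915), and Ccl8 with Kcng2 (r = 0.939), Tmem119 (r = 0.938), Renbp (r = 0.896), both sharing Kcng2. The pattern of Ccl3 was closest to Lilrb4a (r = 0.951), Tyrobp (r = 0.949), Cd300c2 (r = 0.948), that of Ccl4 to Rgs10 (r = 0.944), Tyrobp (r = 0.9397), Evi2a (r = 0.937), that of Cxcl2 to Slfn8 (r = 0.942), Osm (r = 0.939), Lilr4b (r = 0.936) and that of Ccl2 to Hfe (r = 0.9298), Cnpy3 (r = 0.906), Rnf130 (r = 0.894). Cxcl12 was closest to Fkbp9 (r = 0.933), Gng11 (r = 0.925), Wwtr1 (r = 0.922), and Cxcl14, at a lower likeness, to Gpha2 (r = 0.868), Tceal5 (r = 0.847), Nt5dc2 (r = 0.836). The 19 points share libraries and depth, and these values are descriptions.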

How the data were processed

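Single cells of whole VNOs were captured with the 10x Genomics 3′ kit in 2 libraries. Per the labels and the study's methods, the authors used bcl2fastq, Cell Ranger 4 and Seurat 3.2.3 with mm10, and deposited 1 matrix of raw UMI counts per gene and barcode (24084 barcodes, 203447857 UMIs, both libraries joined). The suffix of a barcode gave its library. The filter on cells was 200 to 9000 genes and no more than 5% of UMIs from mitochondrial genes.

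Clusters were drawn in Seurat 5.3.0 (2000 variable genes less the chemokine and receptor genes, 30 components, resolution 0.8) and named when at least 3 markers of a list were raised 4-fold over all other cells. Macrophage-, neutrophil-, endothelial-like and stromal cells were clustered again (15 components, resolution 0.5, markers raised 2-fold). These folds, and 3 clusters left unnamed by hand, were chosen after seeing the data. The genes, lists and comparisons were also chosen with earlier results of these data known. Doublets were called with Scrublet in scanpy 1.11.5 (68 and 117 kept cells, 1.19% and 2.39%) and left in, with an alternative without them. Genes named are the 10 chemokines, their receptors, and the other ligands and receptors counted by direction, with those past the threshold named. Of the receptors, 1 is not reported here.

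UMI counts were summed per library and group and compared with edgeR 4.0.16 (quasi-likelihood test, TMM, genes with at least 10 UMIs, Benjamini-Hochberg adjustment over all genes tested, threshold 0.05). Since the groups are clusters of the same cells, the p-values do not allow for the clustering. Groups compared within a library share it: same-numbered deviations correlated at 0.0634 to 0.121, and blocking on the library (the replicate number) was tried as an alternative. Other alternatives were DESeq2 1.42.0, its size factors, no filter, a mitochondrial limit of 10%, no doublets, resolution 0.5, chemokine genes kept in the clustering and, chosen after seeing the data, no shallow or mixed subclusters. Shares of cells were counted after thinning to 1000 UMIs, with exact (Clopper-Pearson) 95% intervals. On simulated counts with 200 changed genes, a log2 change of 1 was recovered for 52% of genes in Mrc1-high against other macrophage-like cells, 28% in macrophage-like against neutrophil-like, 50% in fibroblast-like against endothelial-like and 46% in basal-like against sustentacular-like cells. The false share of calls was 6.43%, 4.76%, 4.14% and 3.14% in that order, the first above the threshold of 5%. The comparisons themselves called 1797 to 5669 genes, more than the 200 changed in the simulation, so both kinds of share may differ for them. Between the 2 libraries of a class, the chi-square per degree of freedom of the summed UMIs was 1.70 to 10.2, where independent UMIs would give about 1. UMIs of a cell are not independent, so this value cannot separate a difference between libraries from the sampling of cells. UMI counts were not scaled by length, since 3′ tags do not grow with it.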

Additional observations from a re-analysis of the deposited data

How the results depend on the processing

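Of 39 fold changes of the 10 chemokines, 27 passed the threshold, and 23 of these kept their direction and their side of it under every alternative with a test. The exceptions were Cxcl14 in macrophage-like against neutrophil-like cells and Ccl8 in fibroblast-like against endothelial-like cells with DESeq2, Ccl7 in the latter without the mixed subclusters, and Ccl12 in basal-like against sustentacular-like cells at a mitochondrial limit of 10% (log2 fold change -0.38, adjusted p = 0.309). Each of the 27 kept its direction in either library alone, where no test was possible. Without doublets the log2 fold change of Cxcl14 in Mrc1-high macrophages was -4.57, and in basal-like against sustentacular-like cells that of Ccl3 was -3.22 and that of Ccl4 -3.87. A mitochondrial limit of 10% gave 3.48 for Ccl8 in Mrc1-high macrophages, 1.31 for Ccl7 in fibroblast-like against endothelial-like cells and -2.21 for Ccl4 in basal-like against sustentacular-like cells, where keeping the chemokine genes in the clustering gave -2.18. Of the levels recomputed at a mitochondrial limit of 10%, 216 stayed within 1 SD of the libraries and 114 did not. Without doublets 279 stayed and 81 did not. At resolution 0.5 these counts were 351 and 29, and with the chemokine genes kept in the clustering 335 and 35. Levels of 1 library alone are not counted, since either of 2 libraries always lies within 1 SD of their mean.

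Calls over all genes fell with DESeq2 from 1797 to 890 in Mrc1-high against other macrophage-like cells, from 5276 to 3439 in macrophage-like against neutrophil-like, from 5669 to 3666 in fibroblast-like against endothelial-like and from 5514 to 3580 in basal-like against sustentacular-like cells. Without the filter the first gave 1197, and a mitochondrial limit of 10% gave 8432 in the last. With the library (replicate) block the counts were 2301, 5277, 5946 and 6661 in that order, and no call of the 10 chemokines changed.

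The values that changed sign belonged to fold changes that had not passed. In fibroblast-like against endothelial-like cells, leaving out the doublets gave -1.51 for Ccl3 (adjusted p = 0.0150), -1.28 for Ccl4, -1.42 for Ccl12 and -0.40 for Cxcl2. The mitochondrial limit of 10% gave -0.0887 for Ccl2 and -0.38 for Cxcl12 (adjusted p = 0.0320), and leaving out the mixed subclusters gave -0.23 for Ccl2, -0.86 for Ccl3 and -3.85 for Cxcl2. The replicate block gave -0.0297 for Cxcl2. Without the filter Ccl2 (0.47), Ccl3 (0.61) and Ccl4 (1.06) passed in the same direction. The libraries alone spanned -1.48 to 2.82 for Ccl2, -2.11 to 2.07 for Ccl3, -0.91 to 2.28 for Ccl4, -0.24 to 1.12 for Ccl12 and -1.65 to 0.79 for Cxcl2. In macrophage-like against neutrophil-like cells Cxcl12 was -1.96 at the 10% limit (adjusted p = 0.00822) and -0.46 to 2.77 in the libraries alone. In basal-like against sustentacular-like cells Cxcl2 was 0.0218 without the filter, 0.13 with the replicate block and -0.80 to 3.91 in the libraries alone, and Pf4 was 0.22 at the 10% limit. The cause was not tested. Depth limits the shares: neutrophil-like cells had a median of 1592 UMIs, and thinning to 2000 UMIs left out 601 of 753 such cells.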

Other observations

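Chemokine ligands outside the 10 had narrow sources of their own, given here as levels without a test. Ccl21a was at 27220.3 and 25899 CPM in the 35 Lyve1-led endothelial cells, Lyve1 being a marker of lymphatic vessels, though its reads can be split with near-identical copies of the gene. Ccl19 was at 1141 and 1029.9 CPM in Pi16-raised fibroblasts. Ccl5 was at 4171 and 2528 CPM and Xcl1 at 769 and 355 CPM in NK cell-like cells, both known products of cytotoxic lymphocytes.

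Epithelial classes had others. Ccl25, a ligand of Ccr9, was at 344 and 258 CPM in sustentacular-like cells, Cxcl17 at 752 and 1217 CPM in ciliated-like cells, and Ccl9 at 173 and 205 CPM in gland-like cells. Ccl20 was at 35.6 and 55.7 CPM in the basal-like cells led by Dlk2. Cxcl16, which exists as a membrane-bound form, was at 774 and 666 CPM in Plaur-led macrophages, and Cxcl10, an interferon-induced ligand of Cxcr3, at 522 and 602 CPM in Ifit3-led neutrophils.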
